A study of Mus musculus with 12 samples.

Results

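The thick ascending limb is the stretch of the nephron that takes up salt without water. Its genes were represented by 8 genes named by symbol: *Umod*, *Slc12a1*, *Kcnj1*, *Cldn10*, *Cldn16*, *Cldn19*, *Egf* and *Ptger3*. Each symbol was matched to 1 of the 57180 Ensembl identifiers in the count files, and all 8 genes were among the 17163 genes with enough counts to be tested. None of them passed the test for a difference between mice given cannabidiol (CBD) and control mice at either dose, and in each comparison the values of the groups overlapped for all 8. Few of all tested genes did either, so that 0 of 8 was near the share over all genes. Of these, 0.0291% passed at 10 mg and 0.303% at 20 mg. The groups did not overlap for 3.19% and 5.3% at the doses and 3.1% between them. The levels of these genes varied between mice of the same group, up to 2.87-fold for *Ptger3* after 10 mg, and several of them varied together.

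The study asked how long-term CBD, a plant cannabinoid, alters gene expression in the mouse kidney. Male mice of the inbred strain C57BL/6J, 60 days old at the start, were injected intraperitoneally once a day for 28 days, and 4 received vehicle (Control), 4 received CBD at 10 mg/kg body weight (10CBD) and 4 received 20 mg/kg (20CBD). The vehicle, saline with Tween 80, was common to all groups, and no untreated mice were compared. Each library was made from poly(A) RNA of kidney of 1 mouse. Whether whole kidneys or parts of them were used, and from which zone, was not given in the sources used here.

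Cells of the thick ascending limb bring sodium, potassium and chloride in from the tubular fluid, return the potassium to the fluid through a channel, and let calcium and magnesium pass between the cells through tight junctions. Loop diuretics act on this cotransport. The same cells make uromodulin, the most abundant protein of normal urine, and the segment is a known site of epidermal growth factor precursor. Prostaglandin E2 and vasopressin are among the signals that set its rate of transport.

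The 12 libraries held between 15417867 and 23532088 counts on genes, with a median of 18193787.5, so that even *Cldn16*, with the lowest level of the 8 genes, had 40 to 79 counts per library. The share of counts on genes of the mitochondrial genome ran from 3.53% to 23.4%. It was under 10% in 4 libraries, namely Control 2, 10CBD 1, 10CBD 3 and 20CBD 3, where the number after the group is the replicate. Levels are given as CPM, the count of a gene scaled to a common library size after normalization by trimmed mean of M values (TMM). Defining genes of kidney tubules were abundant in all libraries, with 5852 to 8626 CPM summed over 6 genes of the proximal tubule. A gene was called changed at an adjusted p under 0.1 in edgeR's quasi-likelihood test.

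All 8 genes are protein-coding, and their positions are given on GRCm39 from GENCODE vM39. *Umod* lies at chr7:119061934-119078505 on the minus strand and *Slc12a1* at chr2:124994425-125071922 on the plus strand. *Kcnj1* lies at chr9:32283789-32310493 and *Cldn10* at chr14:119025320-119112901, both on the plus strand. *Cldn16* lies at chr16:26281885-26301515 and *Cldn19* at chr4:119112591-119119635, also on the plus strand. *Egf* lies at chr3:129470410-129549093 on the minus strand and *Ptger3* at chr3:157272492-157352099 on the plus strand, so that this pair shares a chromosome. Exons of *Umod*, *Cldn19* and *Egf* overlap those of long non-coding RNAs on the opposite strand, and the strand setting of the counting was not given. The highest count in any library was 0 for Gm44588 across from *Umod*, 16 for Gm12927 across from *Cldn19*, and 190 for Gm42697 and 67 for Gm42650 across from *Egf*.

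The sequences just before the transcription starts are shown for *Slc12a1*, *Cldn19* and *Ptger3*, whose levels varied together over the 12 libraries, for *Umod*, and for both annotated starts of *Cldn10*. They come from RefSeq on GRCm38.p6, read 5′ to 3′ on the strand of the gene, and end before the earliest start that GENCODE places in the window or, at the upstream *Cldn10* start, where it places none there, at the start given by RefSeq. Capitals mark matches to the motifs searched.
Slc12a1, chr2:125152350-125152504, plus strand: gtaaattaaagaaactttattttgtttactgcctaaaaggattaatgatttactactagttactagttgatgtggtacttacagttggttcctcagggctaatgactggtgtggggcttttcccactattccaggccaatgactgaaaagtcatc
Cldn19, chr4:119255191-119255393, plus strand: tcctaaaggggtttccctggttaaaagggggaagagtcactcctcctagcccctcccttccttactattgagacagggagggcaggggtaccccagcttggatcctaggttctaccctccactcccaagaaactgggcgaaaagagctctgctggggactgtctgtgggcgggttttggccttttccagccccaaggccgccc
Ptger3, chr3:157566626-157566854, plus strand: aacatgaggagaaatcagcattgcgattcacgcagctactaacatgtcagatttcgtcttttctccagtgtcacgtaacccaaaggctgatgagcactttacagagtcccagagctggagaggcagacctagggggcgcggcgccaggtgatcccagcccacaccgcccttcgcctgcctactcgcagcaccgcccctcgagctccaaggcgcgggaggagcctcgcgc
Umod, chr7:119479283-119479512, minus strand: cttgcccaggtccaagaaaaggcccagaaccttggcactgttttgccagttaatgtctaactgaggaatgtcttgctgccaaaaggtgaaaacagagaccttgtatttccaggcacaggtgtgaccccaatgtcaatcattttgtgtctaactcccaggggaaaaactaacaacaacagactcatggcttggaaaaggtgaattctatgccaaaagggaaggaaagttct
Cldn10 upstream start, chr14:118787621-118787870, plus strand: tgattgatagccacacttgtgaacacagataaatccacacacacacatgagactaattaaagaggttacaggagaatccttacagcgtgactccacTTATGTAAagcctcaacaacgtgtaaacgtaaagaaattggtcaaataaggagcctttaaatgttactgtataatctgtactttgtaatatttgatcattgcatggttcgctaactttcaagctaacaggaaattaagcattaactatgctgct
Cldn10 downstream start, chr14:118854700-118854731, plus strand: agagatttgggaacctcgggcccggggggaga

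The motifs looked for, on both strands, were the E-box CACGTG, the D-box TTANGTAA, where N is any base, and the half-site AGGTCA of nuclear receptors. The upstream *Cldn10* sequence holds 1 D-box, 154 bases before its end. Over the 11 RefSeq windows of the 8 genes, each taken as 250 bases, 1 held the D-box and 0 the E-box or the nuclear receptor half-site. Among 32851 mouse promoter windows of 250 bases, 2.06% held the D-box, 6.02% the E-box and 14.0% the nuclear receptor half-site. The upstream *Cldn10* sequence has a GC content of 36.0% and the short stretch before the downstream start 65.6%. The sequences of *Slc12a1*, *Cldn19*, *Ptger3* and *Umod* hold none of these letters, which says nothing of the factors themselves.

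The levels of the 8 genes spanned a wide range. Per kilobase of exon, the mean over the 12 libraries was 208 CPM for *Umod*, 165 for *Slc12a1*, 71.6 for *Egf*, 38.6 for *Cldn10*, 35.0 for *Kcnj1*, 4.99 for *Cldn19*, 3.29 for *Ptger3* and 2.61 for *Cldn16*. *Umod* was above *Slc12a1* in 11 of 12 libraries. The order of *Cldn10* and *Kcnj1*, and that of *Ptger3* and *Cldn16*, held in 9 of 12 libraries, so that these neighbours did not differ beyond their spread. The other neighbours kept their order in all 12. The length used was that of the merged exons of all annotated transcripts, 12225 bases over 15 transcripts for *Egf* and 2763 over 6 for *Umod*. The order depends on this length. By CPM without division by length, *Slc12a1*, *Egf* and *Umod* had means of 949, 875 and 574, above 99% of the tested genes. *Cldn19* and *Ptger3* were then at 21.4 and 20.7 CPM, while *Cldn16* was at the percentile 30.0.

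**Figure D1:**
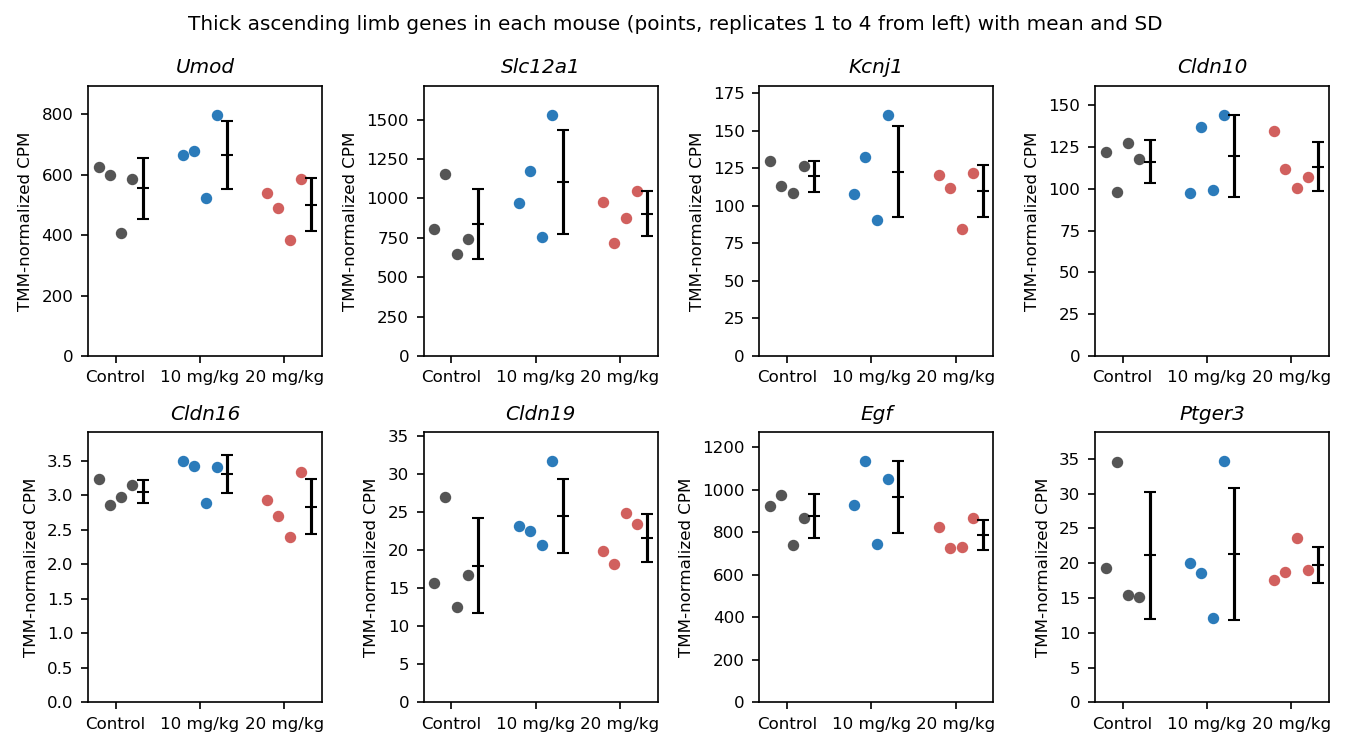
Level of the 8 thick ascending limb genes in each mouse. The vertical axes give TMM-normalized CPM and start at 0, each point is 1 mouse, ordered from replicate 1 to 4 within Control, 10 mg/kg and 20 mg/kg CBD, and the bar beside each group is its mean ± SD (n = 4). The groups overlap in all 8 panels, and the fourth 10 mg mouse is the highest of the 12 for *Umod*, *Slc12a1*, *Kcnj1*, *Cldn10*, *Cldn19* and *Ptger3*.

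*Slc12a1* encodes NKCC2, the sodium, potassium and chloride cotransporter on which loop diuretics act. Its level was 806, 1155, 645 and 739.8 CPM in the 4 control mice, 969, 1171, 753 and 1529 CPM after 10 mg, and 976, 715, 874 and 1049 CPM after 20 mg. The highest control mouse lay above 2 of the 10 mg mice and above all 20 mg mice, so that the groups overlapped. The mean was 836 ± 222 CPM in controls, 1105 ± 330 after 10 mg and 904 ± 145 after 20 mg (SD, n = 4). At 10 mg the log2 fold change was 0.40 (SE 0.22, adjusted p = 0.872, edgeR). It was 0.11 (SE 0.22, adjusted p = 0.937, edgeR) at 20 mg. The first of these values leaned on single mice, being 0.20 without 10CBD 4 and 0.60 without Control 2.

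*Kcnj1* encodes ROMK, the channel that returns potassium to the tubular fluid. It was at 130.0, 113, 108 and 127 CPM in controls, at 108, 132, 90.4 and 161 CPM after 10 mg, and at 121, 112, 84.9 and 122 CPM after 20 mg. The control values lay within the range of the 10 mg group. Its log2 fold change came to 0.04 (SE 0.17, adjusted p = 0.982, edgeR) at 10 mg and −0.12 (SE 0.17, adjusted p = 0.897, edgeR) at 20 mg. At 10 mg it was −0.12 without 10CBD 4.

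Among the tight junction genes, *Cldn16* and *Cldn19* encode claudins that together let calcium and magnesium through, and *Cldn10* encodes a claudin whose splice forms pass either sodium or anions. *Cldn19* was at 15.7, 27.0, 12.5 and 16.7 CPM in controls, 23.2, 22.6, 20.7 and 31.7 CPM after 10 mg, and 19.9, 18.1, 24.9 and 23.4 CPM after 20 mg. Control 1, Control 3 and Control 4 lay below all treated mice, and Control 2 lay above all of them but 10CBD 4. The mean was 18.0 ± 6.25 CPM in controls, 24.5 ± 4.89 after 10 mg and 21.6 ± 3.13 after 20 mg (SD, n = 4). The log2 fold change of *Cldn19* at 10 mg was 0.45, the highest of the 8 genes, with a 95% confidence interval from −0.00013 to 0.89. Its unadjusted p was 0.0501 and its adjusted p 0.870 in edgeR, and an exact permutation test over the mice, two-sided, gave p = 0.114. At 20 mg its log2 fold change was 0.26 (SE 0.21, adjusted p = 0.799, edgeR). Leaving out Control 2 raised the value at 10 mg to 0.71 and leaving out 10CBD 4 lowered it to 0.30.

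*Cldn16*, which was also the least variable of the 8 genes, was at 3.23, 2.86, 2.97 and 3.15 CPM in controls, 3.49, 3.43, 2.89 and 3.40 CPM after 10 mg, and 2.93, 2.69, 2.40 and 3.33 CPM after 20 mg. The mice 10CBD 1, 10CBD 2 and 10CBD 4 lay above all other mice. At 40 to 79 counts per library, counting noise can make up much of such differences. Its part in them, and in the correlations of *Cldn16* given below, was not tested. The log2 fold change was 0.11 (SE 0.18, adjusted p = 0.948, edgeR) at 10 mg and −0.11 (SE 0.18, adjusted p = 0.924, edgeR) at 20 mg.

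*Cldn10* was at 122, 98.1, 128 and 118 CPM in controls, 97.8, 137, 99.3 and 144 CPM after 10 mg, and 134, 112, 100.4 and 107 CPM after 20 mg. The lowest mouse of each group was close to 100 CPM, and the means of 116 ± 12.9, 120 ± 24.5 and 113 ± 14.8 CPM (SD, n = 4) lay within the SD of each group. On the log2 scale the fold change was 0.04 (SE 0.15, adjusted p = 0.981, edgeR) at 10 mg and −0.04 (SE 0.15, adjusted p = 0.979, edgeR) at 20 mg. The counts are per gene, and do not tell apart the forms that begin at the upstream and the downstream start.

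*Umod* encodes uromodulin. It was at 626, 601, 407 and 587 CPM in controls, 665, 680.5, 523 and 798 CPM after 10 mg, and 541, 489.7, 384 and 587 CPM after 20 mg. The mice 10CBD 1, 10CBD 2 and 10CBD 4 lay above all other mice, and 10CBD 3 lay among the controls. The mean was 555 ± 100.1 CPM in controls, 667 ± 113 after 10 mg and 501 ± 87.5 after 20 mg (SD, n = 4). The log2 fold change was 0.26 (SE 0.18, adjusted p = 0.893, edgeR) at 10 mg and −0.15 (SE 0.18, adjusted p = 0.878, edgeR) at 20 mg. Between the doses, *Umod* was the only one of the 8 genes with an unadjusted p under 0.05 in edgeR, and its level at 20 mg was lower by a log2 fold change of −0.41 (95% confidence interval −0.79 to −0.04). Its unadjusted p was 0.0337 and its adjusted p 0.769 in edgeR, and the exact permutation test gave p = 0.0857.

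*Egf* encodes the precursor of epidermal growth factor. Its level was 922, 976, 739 and 868 CPM in controls, 929, 1132, 743 and 1049 CPM after 10 mg, and 826, 723, 728 and 866 CPM after 20 mg. The 20 mg mice all lay below 3 of the 4 control mice, and Control 3 lay among them. The mean was 876 ± 102 CPM in controls, 963 ± 169 after 10 mg and 786 ± 71.5 after 20 mg (SD, n = 4). The log2 fold change was 0.14 (SE 0.15, adjusted p = 0.931, edgeR) at 10 mg. It was −0.16 (SE 0.15, adjusted p = 0.846, edgeR) at 20 mg, where the exact permutation test gave p = 0.143.

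*Ptger3* encodes the EP3 receptor for prostaglandin E2. It was at 19.3, 34.6, 15.5 and 15.1 CPM in controls, 20.0, 18.6, 12.1 and 34.6 CPM after 10 mg, and 17.6, 18.8, 23.6 and 19.1 CPM after 20 mg. Control 2 and 10CBD 4 stood far above the other mice of their groups, at the same level. The means were 21.1 ± 9.18, 21.3 ± 9.52 and 19.8 ± 2.63 CPM (SD, n = 4). Fold changes on the log2 scale were 0.01 (SE 0.29, adjusted p = 0.997, edgeR) at 10 mg and −0.10 (SE 0.29, adjusted p = 0.966, edgeR) at 20 mg. The sign of both values turned with single mice, from −0.33 without 10CBD 4 to 0.35 without Control 2 at 10 mg.

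Across the comparison of 10 mg with control, 0 of the 8 genes were called, against 0.0291% of all tested genes, which is 5 genes. At 20 mg 0 of 8 were called, against 0.303% or 52 genes. Between the doses 0 of 8 were called, against 0% of all genes. DESeq2 also called 0 of the 8 in each comparison, against 0.233%, 1.06% and 0.0699% of all genes. At an unadjusted p under 0.05, edgeR gave 0, 0 and 1 of the 8 genes in these comparisons and DESeq2 1, 0 and 2, and the share over all genes was 5.67%, 8.45% and 6.31% in edgeR and 6.15%, 9% and 6.78% in DESeq2. The share of genes whose groups did not overlap was 3.19%, 5.3% and 3.1% over all genes, and 0 of the 8 in each. With 4 mice against 4 the exact permutation test has 70 arrangements and cannot give a p below 0.0286.

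All 8 fold changes lay above 0 at 10 mg, with a median log2 of 0.12, where 52.3% of all tested genes lay above 0 and their median was 0.01. At 20 mg 2 of 8 lay above 0, *Slc12a1* and *Cldn19*, and the median was −0.10, against 52.5% and 0.01 over all genes. Between the doses 0 of 8 lay above 0, with a median of −0.20, against 49.4% of all genes and a median of −0.003. The comparisons share groups, so that these signs are not separate pieces of evidence, and genes that vary together do not count as 8 independent ones. The 95% confidence intervals of the 8 genes reached from 0.653-fold to 1.86-fold at 10 mg and from 0.605-fold to 1.64-fold at 20 mg. In whole tissue, fewer cells of the segment and less RNA per cell cannot be told apart.

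**Figure D2:**
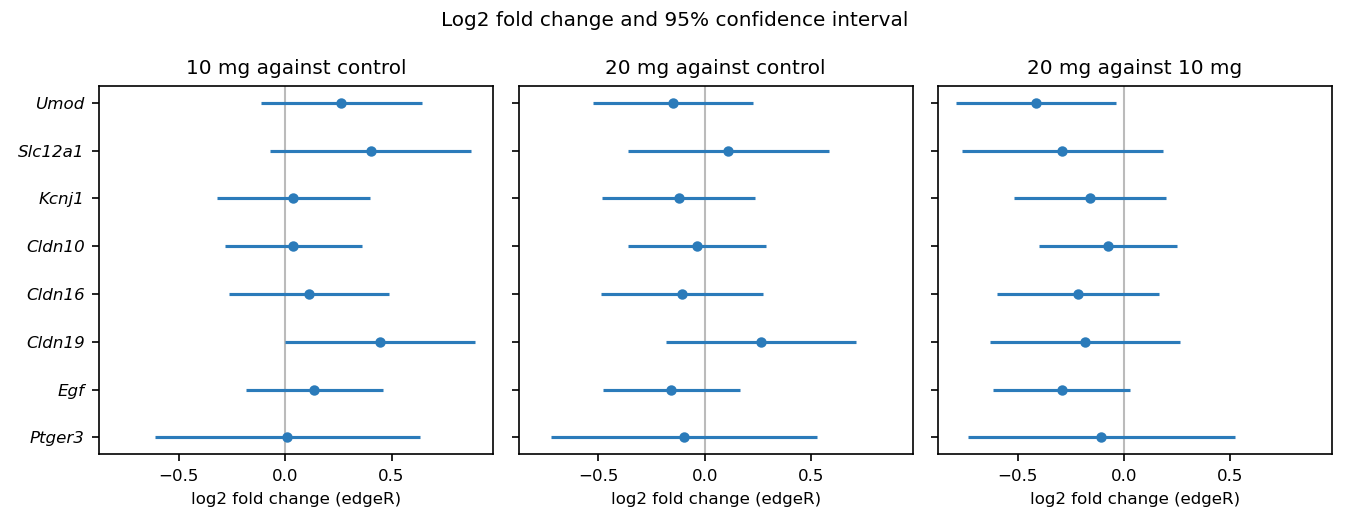
Log2 fold change (horizontal axis) of each gene for 10 mg against control, 20 mg against control and 20 mg against 10 mg. Points are edgeR estimates and lines their 95% confidence intervals. The interval includes 0 for all 8 genes in the first and second panels, and leaves out 0 only for *Umod* in the third.

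The variation between mice of 1 group was shared by many of the 8 genes. After the group mean was subtracted from log2 CPM, 26 of the 28 pairs of genes had a correlation above 0 over the 12 libraries, with a median Pearson r of 0.58 and a range from −0.21 to 0.86. Values from the same library share its depth and normalization, and the correlations are given as a description. The 3 pairs among *Slc12a1*, *Cldn19* and *Ptger3* had r from 0.84 to 0.86, and the 6 pairs among *Umod*, *Kcnj1*, *Cldn16* and *Egf* had r from 0.61 to 0.84. These groupings were chosen after the values were seen. *Slc12a1* was also close to *Egf*, with r = 0.85. *Cldn19* and *Cldn16*, whose proteins work together in 1 junction, had r = −0.03. *Cldn10* had r = 0.74 with *Kcnj1* and from −0.21 to 0.38 with the other genes.

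The correlations were also taken without extreme libraries. When the 2 libraries farthest from the median of the first gene of a pair were left out, the 3 pairs of *Slc12a1*, *Cldn19* and *Ptger3* had r from 0.61 to 0.64, and the libraries left out were 10CBD 4 and Control 2. The 6 pairs among *Umod*, *Kcnj1*, *Cldn16* and *Egf* then had r from 0.37 to 0.87 with a median of 0.65. The libraries left out were not the same for all pairs. Leaving out the extreme libraries of a gene narrows its range, which by itself tends to lower r. The part of single libraries in these correlations was therefore not tested. The highest value was that of *Slc12a1* and *Egf*, 0.91, which was also their Spearman rho over all 12 libraries, where the first 3 genes had rho from 0.66 to 0.76. The pairs of *Cldn10* had r from −0.55 to 0.66. Over all 28 pairs the median was then 0.53, and 24 lay above 0. In 10CBD 4 each of the 8 genes was among the 3 highest of the 12 libraries, and in 10CBD 2 this held for 6 of them. In Control 3, 5 of the 8 were among the 3 lowest. The library 20CBD 3 had the lowest level of *Umod*, *Kcnj1* and *Cldn16* and, at the same time, the third highest of *Cldn19* and *Ptger3*.

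**Figure D3:**
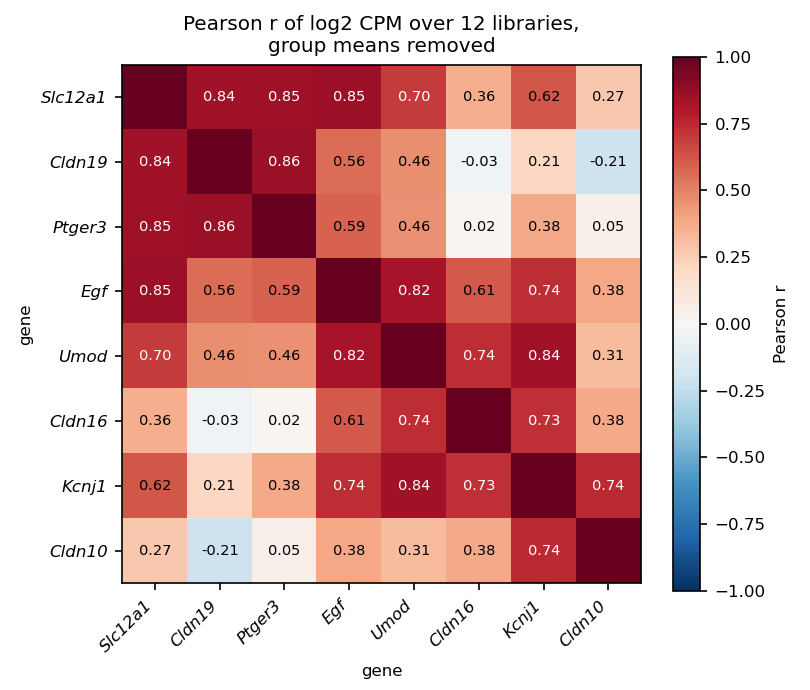
Pearson r between the 8 genes over the 12 libraries, from log2 CPM after subtraction of each group's mean. Both axes list the genes, and the colour runs from −1 (blue) to 1 (red). *Slc12a1*, *Cldn19* and *Ptger3* form a block with r from 0.84 to 0.86, and *Cldn10* has its highest value, 0.74, with *Kcnj1*.

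Markers of other parts of the kidney moved with some of these genes within groups. The mean standardized log2 CPM of 7 inner medulla and osmolyte genes, 1 of which is also a transport partner, had r from 0.79 to 0.88 with *Slc12a1*, *Cldn19* and *Ptger3*, and from 0.28 to 0.72 with the other 5 genes, again with group means removed over 12 libraries. For 6 genes of collecting duct principal cells the ranges were 0.62 to 0.89 and −0.33 to 0.35. For 6 genes of the proximal tubule, a cortical segment for most of its length, they were −0.84 to −0.57 and −0.38 to 0.22. In summed CPM the inner medulla list ran from 749 to 906 in controls, 665 to 1071 after 10 mg and 714 to 886 after 20 mg, and its highest value was in 10CBD 4, the library with the highest summed level of the 8 genes, 3751 CPM. The proximal tubule list ran from 7063 to 8626 CPM in controls, 6457 to 8175 after 10 mg and 5852 to 7014 after 20 mg. 

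Lists of tissue around the kidney's tubules also varied. The 4 genes of the urothelium, the lining of the renal pelvis, had r from 0.75 to 0.90 with *Slc12a1*, *Cldn19* and *Ptger3* and from 0.22 to 0.88 with the other 5, at a summed level of 1.01 to 8.54 CPM in controls, 0.361 to 7.98 after 10 mg and 2.99 to 3.69 after 20 mg. The adipocyte genes, 4 of 5 of which were tested, ran from 6.50 to 95.2 CPM in controls, 0.949 to 34.9 after 10 mg and 0.420 to 18.3 after 20 mg, and had r from −0.06 to 0.73 with the 8 genes. The part of these markers in the levels of the 8 genes was not tested.

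The mitochondrial share was set beside the levels of the 8 genes. In the 4 libraries with a share under 10%, from all 3 groups, *Cldn10* was at 97.8 to 100.4 CPM, and in the other 8 it was at 107 to 144 CPM. These sets of libraries did not overlap for 1 of the 8 genes, against 12.9% of all tested genes, so that the share among the 8 was near that of the background. *Kcnj1* was at 84.9 to 113 CPM in the 4 libraries and at 108 to 161 CPM in the others, overlapping by a few mice. *Cldn19* lay the other way, at 20.7 to 27.0 CPM against 12.5 to 31.7 CPM, with a ratio of medians of 1.27. Over all 12 libraries with group means removed, log2 CPM and the share had r = 0.85 for *Cldn10* and 0.68 for *Kcnj1*. It was 0.38 for *Cldn16*, 0.27 for *Umod*, 0.19 for *Egf*, −0.003 for *Slc12a1*, −0.13 for *Ptger3* and −0.43 for *Cldn19*. Within the 8 libraries of higher share, without removal of group means, r was −0.02 for *Cldn10*, −0.85 for *Cldn16*, −0.59 for *Egf* and −0.52 for *Umod*. The highest shares there, 20.6% and 23.4%, were both of 20 mg mice, so that dose and share are mixed. The part of the mitochondrial share in these levels was not tested.

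**Figure D4:**
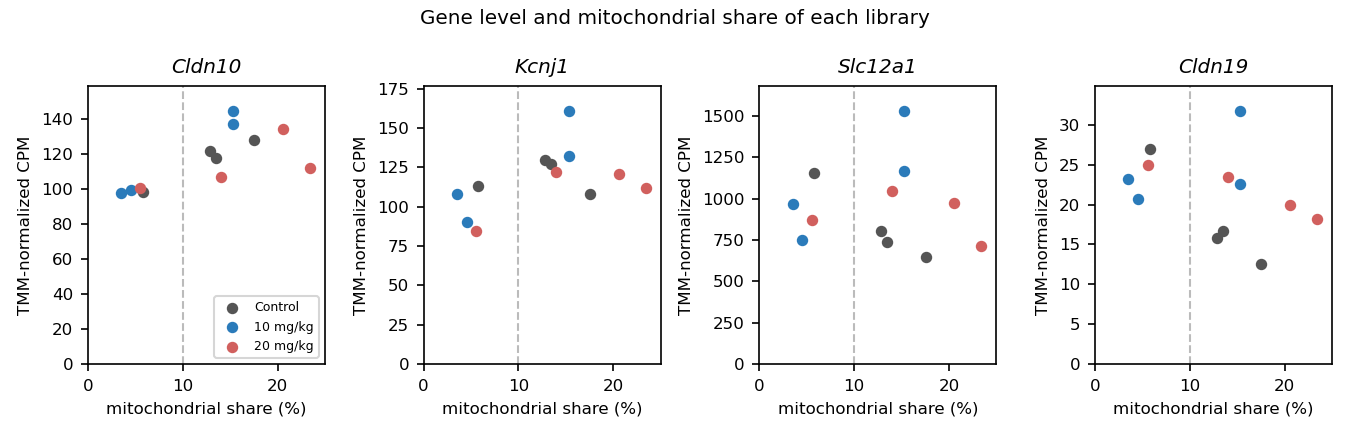
Level of *Cldn10*, *Kcnj1*, *Slc12a1* and *Cldn19* (TMM-normalized CPM, vertical axes from 0) against the percentage of counts on the mitochondrial genome (horizontal axes), with 1 point per mouse and the colours for Control, 10 mg/kg and 20 mg/kg. The dashed line marks 10%, and the 4 *Cldn10* points left of it lie below all 8 points right of it.

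Without those 4 libraries the comparison of 10 mg with control changed. This alternative was chosen after seeing the data, and it leaves 3 control, 2 10 mg and 3 20 mg mice. *Slc12a1* was then called at 10 mg, with a log2 fold change of 0.88 (adjusted p = 0.0874, edgeR), and so was *Cldn19*, with 0.85 (adjusted p = 0.0925, edgeR). Over all genes 26 were called at 10 mg in this fit, against 5 with all 12 libraries. The libraries left out include Control 2, the control with the highest level of both genes, and those kept include 10CBD 2 and 10CBD 4, the 10 mg mice with the highest level of *Slc12a1*. With all 12 libraries and the mitochondrial share as a covariate, 0 of the 8 genes were called.

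The other genes of the segment's transport and its control were compared in 6 lists, with 63 of 77 genes tested. In edgeR 0 of the 63 were called at 10 mg and 0 at 20 mg. The mitochondrial share as a covariate raised the calls over all 17163 tested genes at 20 mg from 52 to 1386. Among the genes with the largest change of each list, *Wnk1*, *Irx2*, *Cldn15*, *Slco2a1* and *Nrg1* were then called at 20 mg (adjusted p = 0.0179 to 0.0685, edgeR). Only these genes, picked for their change at 20 mg, were followed in this setting, so their calls cannot be set against the share over all genes. In the main fit, without the covariate, 8 of the 63 at 10 mg and 5 at 20 mg had an unadjusted p under 0.05 in edgeR. The shares over all genes were 5.67% and 8.45%. The groups did not overlap for 2 of the 63 at 10 mg and 4 at 20 mg, against 3.19% and 5.3% of all genes tested.

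The transport partners include the sodium pump, potassium channels, the apical sodium and proton exchanger, and *Maged2*, which is needed for salt transport before birth. All 10 were tested, 6 lay above 0 at 10 mg and 5 at 20 mg, and the medians were 0.05 and 0.03 on the log2 scale. The member farthest from 0 at 20 mg was *Maged2*, with 11.0 ± 1.25 CPM in controls and 13.0 ± 2.37 after 20 mg (SD, n = 4), a log2 fold change of 0.24 (adjusted p = 0.724, edgeR).

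The regulators hold the WNK kinase cascade that switches the cotransporters on, ubiquitin ligase genes that act on it, and receptors for calcium, parathyroid hormone, vasopressin and calcitonin. Of 16 genes 15 were tested, and *Avpr2*, the vasopressin receptor gene, had at most 12 counts in any library. *Pth1r*, the parathyroid hormone receptor gene, which the proximal tubule also uses, was at 427 ± 37.5 CPM in controls and 616 ± 240.0 after 10 mg (SD, n = 4), a log2 fold change of 0.53 (adjusted p = 0.834, edgeR). *Wnk1*, the gene of a kinase at the head of the cascade, was at 415 ± 54.6 CPM in controls and 322 ± 26.7 after 20 mg (SD, n = 4). The mice did not overlap, and the log2 fold change was −0.36 (adjusted p = 0.503, edgeR). Its counts are per gene in kidney tissue, and tell apart neither the forms of its transcript nor the segments that make them.

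The transcription factors are those of nephron and loop identity. At 20 mg 7 of 10 lay above 0, with a median log2 of 0.21. *Irx2*, a homeobox gene of the intermediate nephron, was at 14.4 ± 1.64 CPM in controls and 19.4 ± 1.36 after 20 mg (SD, n = 4), with no overlap and a log2 fold change of 0.43 (unadjusted p = 0.00524, adjusted p = 0.362, edgeR).

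The other claudins are mostly those of other segments, and 10 of 18 were tested. *Cldn15* was at 10.2 ± 2.02 CPM in controls and 17.1 ± 5.90 after 20 mg (SD, n = 4), a log2 fold change of 0.74 (unadjusted p = 0.00591, adjusted p = 0.369, edgeR). *Cldn6*, under 1 CPM in each group mean, differed from control by −1.38 in log2 after 10 mg (adjusted p = 0.830, edgeR). *Cldn14*, whose product hinders the calcium pathway of the segment, had at most 4 counts in any library and was not tested.

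Of the 11 genes for making, moving, sensing and breaking down prostaglandin E2, 9 were tested. *Ptger1*, the gene of the EP1 receptor, was at 1.5 ± 0.646 CPM in controls and 2.42 ± 0.471 after 10 mg (SD, n = 4), a log2 fold change of 0.70 (adjusted p = 0.812, edgeR). *Slco2a1*, the prostaglandin transporter gene, was at 33.2 ± 2.36 CPM in controls, 51.5 ± 21.4 after 10 mg and 46.4 ± 11.1 after 20 mg (SD, n = 4). Its log2 fold change was 0.63 (adjusted p = 0.812, edgeR) at 10 mg and 0.48 (adjusted p = 0.619, edgeR) at 20 mg. Of the 9 genes, 4 at 10 mg and 0 at 20 mg had an unadjusted p under 0.05 in edgeR, against 5.67% and 8.45% of all genes. *Hpgd*, which encodes the enzyme that inactivates prostaglandins and is named here because its groups did not overlap at 10 mg, had a log2 fold change of −0.50 (adjusted p = 0.812, edgeR). *Cab39* among the regulators was the other such gene at 10 mg, with a log2 fold change of 0.14 (adjusted p = 0.899, edgeR).

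The receptors and other ligands of the epidermal growth factor family had 9 of 12 genes tested, and at 20 mg 2 of 9 lay above 0, with a median log2 of −0.24. *Nrg1*, a ligand gene, was at 12.4 ± 1.26 CPM in controls, 7.77 ± 2.15 after 10 mg and 8.58 ± 1.87 after 20 mg (SD, n = 4). Its log2 fold change was −0.69 (adjusted p = 0.796, edgeR) at 10 mg and −0.54 (adjusted p = 0.473, edgeR) at 20 mg. *Erbb3*, a receptor gene, and *Btc*, the gene of betacellulin, completed the genes without overlap at 20 mg, at −0.37 and −0.47 in log2 against control, where edgeR gave adjusted p-values of 0.503 and 0.612, and both were picked out after their values were seen.

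**Figure D5:**
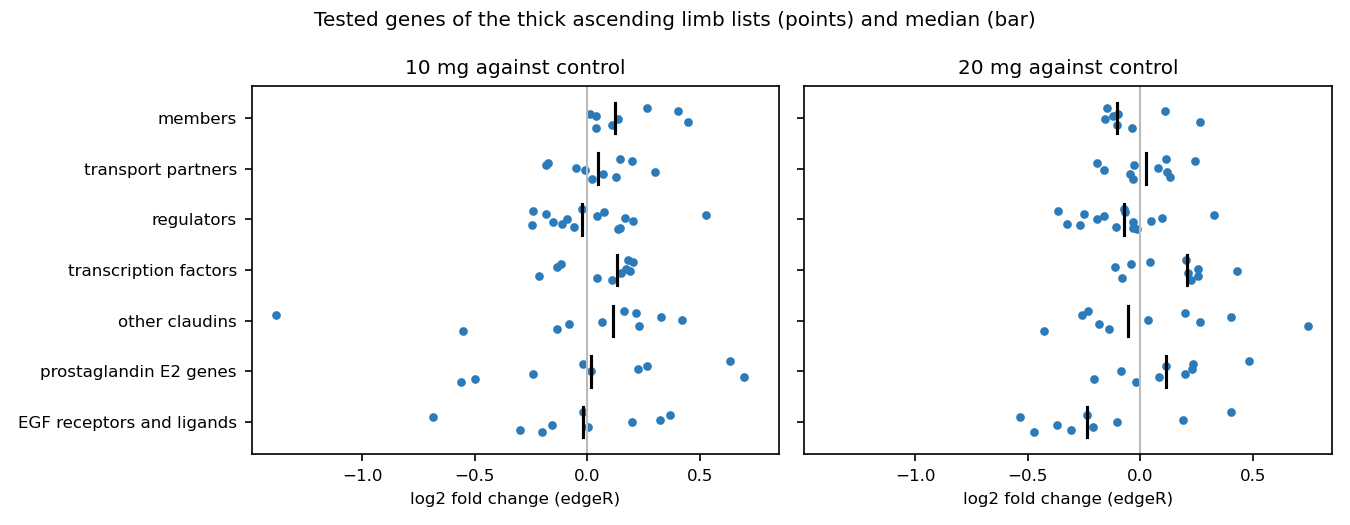
Log2 fold change (horizontal axis) of the tested genes in the 8-gene list, named members, and in the 6 lists of partner genes, for 10 mg and 20 mg against control. Points are genes, bars are medians, and 0 of the points passed the test. The lowest point is *Cldn6* at 10 mg and the highest point at 20 mg is *Cldn15*.

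Single genes of other nephron segments were called at 20 mg. *Slc8a1*, a calcium exchanger gene of the distal convoluted tubule list, was at 87.0 ± 8.67 CPM in controls and 47.6 ± 6.76 after 20 mg (SD, n = 4), and fell by 0.87 on the log2 scale (adjusted p = 0.034, edgeR). *Slc5a2*, the glucose cotransporter gene SGLT2 of the proximal tubule, was at 217 ± 16.2 CPM in controls and 143 ± 13.6 after 20 mg (SD, n = 4), and fell by 0.61 on the log2 scale (adjusted p = 0.082, edgeR). The call of *Slc8a1* was lost without Control 1, Control 2 or Control 4 (adjusted p = 0.110 to 0.134, edgeR), and that of *Slc5a2* without any 1 of the 4 control or 4 20 mg mice (adjusted p = 0.108 to 0.273, edgeR). These genes were 1 of 5 and 1 of 6 of their lists, and whether the segments differ from each other was not tested. *Avpr1a*, the member of the macula densa list with the most counts, differed from control by −0.73 in log2 after 20 mg (unadjusted p = 0.00227, adjusted p = 0.297, edgeR), and 2 of the 4 genes of that list were tested.

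The products of the clock genes bind the E-box and the D-box searched above or control those that do. These genes are the list with the most calls, 3 of 13 at 10 mg and 8 of 13 at 20 mg, against 0.0291% and 0.303% of all tested genes. The list holds genes that the study had reported as changed in these same mice, so its calls are no separate support. At 10 mg *Dbp* and *Per3* rose by 2.75 and 1.08 on the log2 scale (adjusted p = 1.9e-05 and 0.0184, edgeR), and *Npas2* fell by 1.42 (adjusted p = 0.0792, edgeR). At 20 mg *Dbp*, *Per3*, *Nr1d1*, *Nr1d2* and *Ciart* rose by 0.80 to 3.35, and *Bmal1*, *Npas2* and *Nfil3* fell by 1.21 to 1.44, with adjusted p from 1.3e-06 to 0.058 in edgeR. Leaving out 1 library ended some of these calls. At 10 mg that of *Per3* was lost without Control 1, Control 4 or 10CBD 3 (adjusted p = 0.109 to 0.118, edgeR), and that of *Npas2* without Control 1, 3 or 4 or 10CBD 1, 3 or 4 (adjusted p = 0.193 to 0.460, edgeR). At 20 mg *Nr1d1* lost its call without Control 1, 2 or 4 or 20CBD 1, 2 or 4 (adjusted p = 0.110 to 0.172, edgeR), and *Ciart* without any control or 20CBD 3 or 4 (adjusted p = 0.108 to 0.209, edgeR). *Nr1d2* lost it without Control 1, 3 or 4 (adjusted p = 0.106 to 0.137, edgeR), and *Bmal1* without Control 1 (adjusted p = 0.111, edgeR). *Dbp* at both doses and *Per3*, *Npas2* and *Nfil3* at 20 mg were called in all 12 such fits. Within groups the clock list had r from −0.14 to 0.72 with the 8 genes, the highest with *Cldn10*. With group means kept, the value for *Cldn10* was 0.36. This list level averages genes that rose and genes that fell after CBD, so it does not measure the state of the clock. Within groups *Cldn10* had higher r with the mitochondrial share, 0.85, the transcription factors, 0.78, and the endothelium list, 0.73. A link of *Cldn10* to the clock was not tested.

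The genes outside the 8 with the pattern most like theirs were found by the correlation of log2 CPM with the mean standardized level of the 8 genes over the 12 libraries. They were *Pcdh19* with r = 0.92, *Slit2* and *Scin* with r = 0.89, *Abcc1* with r = 0.88 and *Me3* with r = 0.87. The first of these was at a low level, 0.655 to 1.53 CPM, and *Scin* was at 18.3 to 48.9 CPM. They are the 5 highest of all tested genes and were chosen for these values.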

How the data were processed

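Poly(A) RNA from kidney of 12 mice, 4 in each of 3 groups, was sequenced with paired reads from directional CORALL mRNA-Seq V2 libraries. Per the labels and methods, the authors trimmed reads with Flexbar, mapped them with STAR 2.7.5c to GRCm39 and counted them with HTSeq 1.99.2. The deposited files hold whole counts per Ensembl gene and library, without normalization. The annotation release, the strand setting and the use of molecular identifiers in counting were not given in the sources used here. Identifiers were matched to GENCODE vM39, which held 99.0% of them, and the summary lines of the counting tool were left out. Libraries with identical counts were looked for and not found. Each library came from 1 mouse, so p-values rest on the spread between mice.

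Genes were kept by filterByExpr over the 3 groups, TMM scaling was applied, and edgeR 4.0.16 in R 4.3.3 fitted its quasi-likelihood model to all 12 libraries, with 1 mean for each group. Benjamini-Hochberg adjustment ran over 17163 genes, and an adjusted p under 0.1, the study's threshold, was called. Log2 CPM for permutation tests and correlations used a prior count of 2. The code was tested on simulated data. The genes and lists were chosen with earlier results of these data known. Named are all 8 genes, every called gene of the other lists, the gene of each list with the largest change at each dose, and the 5 genes most like the 8, except that some of these are not reported here. Alternatives were DESeq2 1.42.0, RLE scaling, other filters, only the groups compared, a replicate block, the mitochondrial share as covariate, a threshold of 0.05, leaving out each library, and, chosen after seeing the data, leaving out the 4 libraries of low mitochondrial share. Promoter sequences came from RefSeq on GRCm38.p6, and coordinates were not converted between builds.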

Additional observations from a re-analysis of the deposited data

Results flagged for a closer look

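Of 24 sets of 4 mice, 1 for each of the 8 genes in each group, 2 held a mouse that stood apart from the other 3 by Dixon's test, which chance does in about 1 of 20 sets. *Umod* was at 407 CPM in Control 3, and at 587 to 626 CPM in the other control mice. *Cldn16* was at 2.89 CPM in 10CBD 3, and at 3.40 to 3.49 CPM in the other mice given 10 mg. Both were the lowest of their group, and *Cldn16* had only 40 to 79 counts per library.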

How the results depend on the processing

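In edgeR with RLE scaling, with either other filter, with only the groups compared, with the mitochondrial share as covariate, at a threshold of 0.05, in DESeq2, and in each of the 12 fits without 1 library, 0 of the 8 genes were called in any comparison. The replicate numbers mark different mice, and deviations of mice with the same number had r from −0.33 to 0.32. With the replicate block, which is therefore no true pairing, 0 of the 8 were called and 27 genes in all at 20 mg, and *Npas2* at 10 mg and *Slc5a2* and *Nr1d2* at 20 mg were not called (adjusted p = 0.168, 0.206 and 0.118, edgeR). The number of all genes called moved more, at 10 mg, at 20 mg and between the doses in turn. It was 40, 182 and 12 in DESeq2, 331, 416 and 256 without a filter on low counts, and 15, 1386 and 62 with the mitochondrial share as covariate. At a threshold of 0.05 it was 3 and 23 at the doses. Leaving out 1 library gave 2 to 8 genes at 10 mg, 14 to 54 at 20 mg and 0 between the doses, with 2 at 10 mg without Control 1 or 10CBD 3 and 14 at 20 mg without Control 1, 2 or 4. Of the segment's other lists, *Nrg1* at 10 mg and *Cldn15* at 20 mg were called without the filter. The causes were not tested.

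Without the 4 libraries of low mitochondrial share, 2 of the 8 genes were called at 10 mg, 26 and 107 genes in all were called at the doses, and the median log2 fold change of the 8 was 0.41 at 10 mg and −0.42 between the doses. At 20 mg *Umod* was then at 0.00024 and *Ptger3* at 0.15, both with the sign turned. *Ptger3* at 10 mg was −0.013 without a filter, and *Krt5*, a urothelial marker, was −0.057 at 20 mg with the covariate, against 0.39. The median of the 8 ran from 0.08 to 0.25 at 10 mg, −0.14 to −0.03 at 20 mg and −0.29 to −0.06 between the doses when 1 library was left out. Signs turned in such fits for *Kcnj1* (−0.12 to 0.16), *Cldn10* (−0.068 to 0.12), *Ptger3* (−0.33 to 0.35) and *Fxyd4*, a principal cell gene (−0.014 to 0.71), at 10 mg, for *Cldn10* (−0.13 to 0.016), *Ptger3* (−0.23 to 0.25) and *Krt5* (−0.71 to 1.55) at 20 mg, and for *Cldn10* (−0.17 to 0.029) and *Ptger3* (−0.30 to 0.23) between the doses. The intervals give the uncertainty of a difference between group means of 4 mice each. They rest on a spread between mice estimated over the 3 groups together, and do not cover the choice of processing.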

Other observations

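In the marker lists of other kidney cells, the genes farthest from 0 against control were not called at 10 mg in edgeR with the filter on low counts. They were *Slc7a13*, a late proximal tubule transporter gene, at a log2 fold change of 0.83, *Slc6a12*, an osmolyte transporter gene, also at 0.83, *Slc8a1* at −0.56, *Avpr1a* at −0.58, *Fxyd4* of principal cells at 0.29 and *Aqp6* of intercalated cells at −0.51. Endothelium and immune cells gave *Emcn* at −0.33 and *Cd3e* at 0.54. The widest were *Plin1* of adipocytes at −1.83 and *Krt5* of the urothelium at 1.14. Without the filter edgeR called *Slc7a13*, *Slc8a1*, *Aqp6* and *Plin1* at 10 mg.

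After 20 mg the corresponding genes, none of which was called in edgeR with all 12 libraries and this filter, were *Lrp2*, the gene of the proximal tubule receptor megalin, at −0.76, *Slc14a2*, a urea transporter gene, at 0.55, *Calb1*, a calcium-binding protein gene of the distal convoluted tubule, at −0.91, *Scnn1b* at 0.32, *Slc26a4* at −0.39, *Wt1* at 0.27, *Kdr* at −0.33, *Cd3e* at 0.45, *Adipoq* at −3.42 and *Krt5* at 0.39. Without the filter edgeR called *Avpr1a*, *Lrp2*, *Slc14a2*, *Calb1* and *Adipoq* at 20 mg. DESeq2 called *Lrp2*, *Calb1* and *Avpr1a* at 20 mg. With the mitochondrial share as covariate, where 1386 genes in all were called at 20 mg, edgeR called *Avpr1a*, *Lrp2*, *Calb1*, *Scnn1b*, *Kdr* and *Adipoq*. It called *Calb1* without Control 3, with a log2 fold change of −1.12 (adjusted p = 0.0191).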
